A study of Mus musculus with 2 samples.

Results

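Mast cells and basophils made up 62 of 22639 cells in single-cell RNA libraries of sorted leukocytes from mouse MC38 tumours. The cells were chosen by summed UMIs (unique molecular identifiers, each marking 1 captured RNA molecule) of the granule protease genes Cpa3, Cma1, Tpsb2, Mcpt4 and Mcpt8. A member had at least 10 of these UMIs and at most 1 UMI of the T cell receptor genes Cd3d, Cd3e and Cd3g, among cells with at least 300 genes, 500 UMIs and at most 15% mitochondrial UMIs. MC38 is a mouse colon carcinoma line. Its tumours grew in SPP1fl/fl mice, whose Spp1 gene (osteopontin, a secreted glycoprotein) carries loxP sites, and in SPP1fl/fl mice with Lyz2-icre, a Cre recombinase driven from the lysozyme 2 gene of myeloid cells. The floxed allele was therefore common to both groups, and the floxed control carried no Cre according to its label. Each group was 1 library of live CD45-positive cells, with 44 members among 8724 control cells and 18 members among 13915 Lyz2-icre cells. The number of mice, their age and the floxed exons were not given in the sources used here, and each library held cells with Xist and cells with Y-linked RNA, so both pooled animals of both sexes.

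Mast cells are long-lived tissue cells that store histamine, serotonin, heparin and serine proteases in granules, and release them when IgE bound to the receptor FceRI is crosslinked. Basophils are short-lived blood granulocytes that share FceRI and histamine with mast cells, and carry another protease, Mcpt8. In the mouse, Cma1, Mcpt4, the tryptase Tpsb2 and carboxypeptidase Cpa3 are known from connective tissue mast cells, while the chymases Mcpt1 and Mcpt2 are known from mucosal mast cells.

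Of the 5 genes that chose the cells, Cma1, Mcpt4 and Mcpt8 lie in a single cluster, while Cpa3 is on chromosome 3 and Tpsb2 on chromosome 17. From Cma1 to Mcpt8, 7 chymase-like genes (Cma1, Cma2, Mcpt1, Mcpt9, Mcpt2, Mcpt4 and Mcpt8) lay within 144 kb of chromosome 14 (55941451 to 56085273, mm10, GENCODE vM21). GATA2, a transcription factor of mast cells and basophils whose gene was 686-fold higher in the members, belongs to a family that binds GATA sites. The 250 bases before the start of 6 genes are printed 5′ to 3′ from RefSeq (GRCm38.p6), to show where that core sequence lies in genes of the granule and of FceRI. Capitals mark GATAA or its reverse complement TTATC, searched on both strands.
Cpa3 (chr3:20242182-20242431, minus strand): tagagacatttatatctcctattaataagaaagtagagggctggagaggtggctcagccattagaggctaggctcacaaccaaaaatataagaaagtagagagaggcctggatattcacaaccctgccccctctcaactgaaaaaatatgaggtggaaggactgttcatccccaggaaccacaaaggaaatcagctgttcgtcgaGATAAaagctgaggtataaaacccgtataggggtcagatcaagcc
Cma1 (chr14:55944676-55944925, minus strand): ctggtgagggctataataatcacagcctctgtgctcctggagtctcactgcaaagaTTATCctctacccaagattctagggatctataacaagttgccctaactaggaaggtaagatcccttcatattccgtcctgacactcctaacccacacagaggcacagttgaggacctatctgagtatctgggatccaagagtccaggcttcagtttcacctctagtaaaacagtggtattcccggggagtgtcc
Mcpt1 (chr14:56017714-56017963, plus strand): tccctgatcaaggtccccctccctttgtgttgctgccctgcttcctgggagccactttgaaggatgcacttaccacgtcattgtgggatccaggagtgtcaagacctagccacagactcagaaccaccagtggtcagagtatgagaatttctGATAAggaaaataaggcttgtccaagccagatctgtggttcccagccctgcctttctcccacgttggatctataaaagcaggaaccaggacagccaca
Mcpt4 (chr14:56062311-56062560, minus strand): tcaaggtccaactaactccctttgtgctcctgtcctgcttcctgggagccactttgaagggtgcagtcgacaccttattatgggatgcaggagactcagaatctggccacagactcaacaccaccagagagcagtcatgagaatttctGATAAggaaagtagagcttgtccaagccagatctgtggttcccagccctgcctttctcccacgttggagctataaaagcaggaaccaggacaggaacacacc
Mcpt8 (chr14:56085198-56085447, minus strand): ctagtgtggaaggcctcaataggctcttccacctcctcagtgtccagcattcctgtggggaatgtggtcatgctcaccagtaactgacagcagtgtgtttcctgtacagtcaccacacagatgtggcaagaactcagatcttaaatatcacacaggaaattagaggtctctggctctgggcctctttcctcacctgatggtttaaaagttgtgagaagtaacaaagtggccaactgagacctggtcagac
Ms4a2 (chr19:11623720-11623969, minus strand): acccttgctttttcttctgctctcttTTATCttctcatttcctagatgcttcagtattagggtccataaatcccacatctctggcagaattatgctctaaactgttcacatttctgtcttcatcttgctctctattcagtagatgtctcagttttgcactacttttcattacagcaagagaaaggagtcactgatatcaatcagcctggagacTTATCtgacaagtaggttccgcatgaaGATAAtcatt
Of all 32817 promoter stretches of this length, 22.6% held GATAA on either strand. Of 14 granule and receptor genes looked for, 11 had a promoter in the table and 6 of these held a match. The upstream stretches of Mcpt1 and Mcpt4 were 81.9% identical in a global alignment, and both held the match, 98 bases before the start in Mcpt1 and 102 in Mcpt4. Every other pair of the 6 printed stretches was 48.2% to 54.8% identical, and the Mcpt8 stretch had no match. A match is a description of these letters and not a measured binding site. The last 300 bases of the transcripts, where a 3′ library reads, were 36.5% to 61.7% identical between pairs of the chymase-like genes. Between Tpsb2 and Tpsab1 it was 56.4%. These stretches were aligned from each annotated transcript end, and the less alike upstream pairs scored 48.2% to 54.8% in the same way. The values therefore cannot decide whether these genes share read sequence.

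The members were shallower than the cells around them. Median depth was 3870.5 UMIs per cell in control members and 3614.5 in Lyz2-icre members, against 9379.5 and 6374.0 over all kept cells of the same libraries. Total UMIs of the members were 223191 and 97701, and single members held 530 to 22736. The threshold fell in a sparse range: 21712 kept cells had no UMI of the 5 genes and 860 had 1 to 9, of which 7 had 5 to 9 with the highest at 8. Among the members, 7 had 10 to 19 and 54 had 40 or more. A further 5 cells at the minimum were left out for Cd3, and 60 of 62 members had no Cd3 UMI. The libraries shared 43 cell barcodes, none of them a member's. Each genotype had 1 library, so no genotype difference was tested, and the 95% intervals given cover counting error only.

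Mast cell markers beyond the rule were found in most members. Those with more Mcpt8 were named for basophils from that gene, which the rule itself used. A member was placed on the mast side when its Cma1, Tpsb2 and Mcpt4 UMIs together exceeded its Mcpt8 UMIs, and on the basophil side in the reverse case. This gave 56 mast-side cells (40 control, 16 Lyz2-icre) and 6 basophil-side cells (4 control, 2 Lyz2-icre), with none undecided. All 56 mast-side cells held UMIs of Cpa3, Cma1 and Tpsb2 together, and 53 held a UMI of Kit or Fcer1a, neither of which was used to choose them. Other basophil markers did not single out the basophil side. Prss34 was at 66.7 CPM there against 75.6 CPM in the mast side. Fcer1a was found in 2 of 6 against 48 of 56 cells, and Cd200r3 in 4 of 6 against 38 of 56. Itga2 went the other way, in 3 of 6 against 1 of 56 cells, and Cebpa had 1 UMI in the basophil side. These 6 cells were less uniform than the mast side, as described cell by cell further on. Of 8 eosinophil markers the 62 members held 2 UMIs over 2 genes, with Siglecf, Prg2 and Epx at 0. Cd3d, Cd3e, Cd8a and Cd4 were also at 0, but the rule itself capped Cd3 UMIs. Over 9 T cell markers the members held 28 UMIs of 5 genes.

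**Figure D1:**
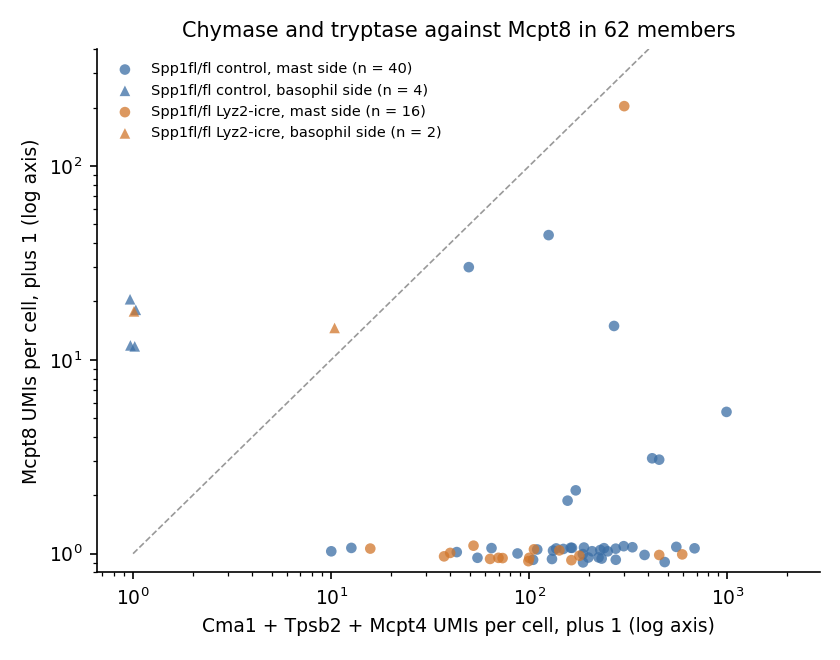
UMIs of Cma1, Tpsb2 and Mcpt4 together (x) against Mcpt8 UMIs (y) in each of the 62 members, both plus 1 on log axes with a small jitter; colour gives the library, circles the mast side and triangles the basophil side, and the dashed line marks equal counts. The 56 mast-side cells lie to the right of the line, 9 of them with Mcpt8 UMIs, and 5 of the 6 basophil-side cells have no UMI of the other 3 genes.

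RNA of macrophages, the most numerous of the sorted leukocytes kept here, was present in the members. All 10 of 10 macrophage markers (C1qa, C1qb, C1qc, Apoe, Adgre1, Csf1r, Mrc1, Ms4a7, Lyz2 and Cd68) were detected, with a summed level of 7998 CPM (counts per 1000000 UMIs) in control and 7779 CPM in Lyz2-icre members. In cells with 10 or more UMIs of the complement genes C1qa, C1qb and C1qc, called C1q-high here, the same sum was 34940 and 27650 CPM. Single mast-side cells ranged from 446 to 32860 CPM (median 2039) in the control and from 316 to 34080 CPM (median 2466) in the Lyz2-icre library. At least 10 C1q UMIs were found in 8 of 44 control members (18.2%) and 6 of 18 Lyz2-icre members (33.3%). No doublet caller was run, so joined cells were not removed, and 2 members held both Xist and Y-linked RNA. Fibroblast or tumour markers summed to 4.48 CPM in control members and 1259 CPM in Lyz2-icre members, nearly all from 1 Lyz2-icre mast-side cell of 5912 UMIs at 20300 CPM. NK cell markers summed to 211 and 102 CPM, and to 1301 CPM in the basophil side. T cell markers summed to 117 and 20.5 CPM and neutrophil markers to 49.3 and 10.2 CPM, against 98070 CPM in cells gated for neutrophil genes. The part of these other cells in the results was not tested. Without members of 10 or more C1q UMIs, genotype ratios of single genes are given below for Mcpt1, Tpsab1, Il13, Fn1 and Fabp5. Ratios of other genes were taken with such members included.

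The granule proteases set the members apart most. Of 14 granule protease genes, 12 reached the floors for comparison with the other 22577 kept cells, and all 12 were past 2-fold higher, in a contrast where 8.87% of 3516 genes were. A gene was compared when it had at least 50 CPM in the higher side and at least 30 UMIs over both, and was past 2-fold when log2 of the ratio, with 5 CPM added to each side, was at least 1 either way. The rule itself used 5 of these genes, so their values are a description. Mcpt2, a chymase that the rule did not use, was at 24920 CPM in control members and 9744 CPM in Lyz2-icre members, against 2.66 CPM in all other cells. Cma1, mast cell chymase 1, was at 22380 and 14350 CPM in the same order, against 3.53 CPM. The tryptase Tpsb2 was at 13840 and 5681 CPM, against 2.04 CPM. Each of these 3 was near 0 outside the members, and each had a lower sum in the Lyz2-icre members than in the control members. These sums include C1q-high members. For Cma1 the sums of the libraries were close once C1q-high members were left out. With them included, the median mast-side cell was at 27090 CPM of Cma1 in the control and 14130 CPM in the Lyz2-icre library.

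Cpa3, the carboxypeptidase that trims peptides after chymase cleavage, was at 7971 CPM in control members and 5486 CPM in Lyz2-icre members, and 59 of 62 members held it. Mcpt4, the mouse chymase closest in activity to the human enzyme, was at 5972 and 5271 CPM. Tpsab1, the second tryptase, was at 1241 and 327.5 CPM. All 14 proteases together took 8.74% of the UMIs of control mast-side cells and 4.91% of those of Lyz2-icre mast-side cells, with single cells from 0.185% to 28.3%. In the basophil side they took 0.710%, and in C1q-high cells 0.00341%. Within the mast side, 47 of 56 cells held both Mcpt2 and Mcpt4, 5 held no Mcpt2 and 5 held no Mcpt4. Mcpt1 was found in 18 of them, and all 18 also held Mcpt2.

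**Figure D2:**
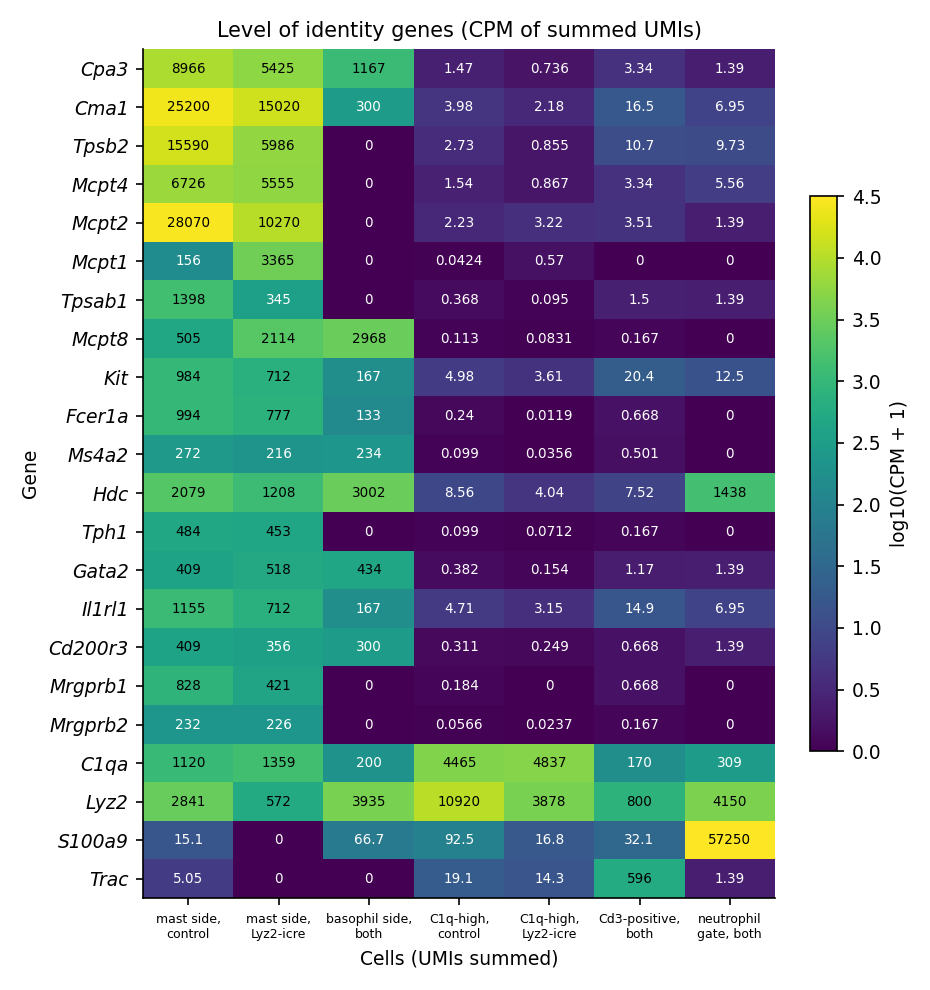
Level of 22 genes (rows) as CPM of summed UMIs in the mast side by library, the basophil side, and gated C1q-high, Cd3-positive and neutrophil cells (columns); colour is log10(CPM + 1) and each box prints the CPM, to be read along a row. Fcer1a and Ms4a2 lie under 1 CPM in the 4 gates of other cells and Cma1 reaches 16.5 CPM in Cd3-positive cells, while Hdc is also high in the neutrophil gate (1438 CPM).

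Genes of the IgE receptor split by subunit. Of 14 genes of the IgE receptor and its signalling that met the floors, 6 were past 2-fold higher and none lower. Fcer1a, the IgE-binding alpha chain, was at 887 CPM in control members and 768 CPM in Lyz2-icre members, against 0.177 CPM elsewhere, and was found in 80.7% of members. Ms4a2, the signal-amplifying beta chain, was at 260 and 235 CPM, against 0.151 CPM. Fcer1g, the gamma chain that macrophages also use for IgG receptors, was at 3768 and 3245 CPM, against 2363 CPM, a log2 ratio of 0.61. The alpha and beta chains were thus near 0 outside the members, and the gamma chain was not. The adaptor Lat was at 323 and 164 CPM against 12.5 CPM, and Lat2 at 815 and 635 CPM against 211 CPM. The kinases Lyn and Syk were within 2-fold, with log2 ratios of -0.77 and -0.68.

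Growth and alarmin receptors differed in both directions. Of 12 cytokine receptor genes, 5 were past 2-fold higher and 3 lower. Kit, the receptor of stem cell factor on which mast cells depend, was at 874 CPM in control members and 727 CPM in Lyz2-icre members, against 8.37 CPM elsewhere. Il1rl1, the receptor of interleukin 33, was at 1031 and 717 CPM, against 5.21 CPM. Csf2rb2, a beta chain of the interleukin 3 receptor, was at 332 and 317 CPM, against 44.8 CPM. Csf2ra, the alpha chain of the GM-CSF receptor, stood out in the other direction, at 76.2 and 92.1 CPM against 248 CPM. A UMI of Kit was found in 81.8% of 44 control and 83.3% of 18 Lyz2-icre members (median depths 3870.5 and 3614.5), and in 3.71% and 2.20% of C1q-high cells (10563 and 7269).

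Amine synthesis and storage genes were all on the high side. All 6 genes of that list that met the floors were past 2-fold higher. Hdc, which makes histamine, was at 2101 CPM in control members and 1484 CPM in Lyz2-icre members, against 12.6 CPM elsewhere and 1438 CPM in the neutrophil gate. Tph1, which starts serotonin synthesis, was at 430 CPM in each library, against 0.0807 CPM. Slc18a2, the vesicle transporter that loads amines, was at 202 and 174 CPM, against 0.495 CPM. Hdc was therefore shared with the neutrophil gate, and Tph1 and Slc18a2 were at 0 there. Srgn, the core protein of granule heparin, was at 4709 and 4268 CPM, against 1518 CPM. Of 5 eicosanoid genes, 3 were higher and none lower: Alox5 and Alox5ap, which start leukotriene synthesis, were at 296 and 1097 CPM over all members against 17.3 and 527 CPM, and Hpgds, prostaglandin D2 synthase, was at 203 CPM against 50.6 CPM.

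Lineage factors and surface receptors split. Of 12 transcription factor genes, 4 were higher (Gata2, Egr3, Mitf and Ikzf2) and 3 lower. Gata2 was at 390 CPM in control members and 563 CPM in Lyz2-icre members, against 0.645 CPM. Mitf, a factor that mast cell development depends on, was at 103 and 81.9 CPM, against 27.8 CPM. Cebpa, a factor of myeloid and basophil lineages, was at 8.96 and 20.5 CPM, against 61.3 CPM. Of 21 surface regulators, 7 were higher and 6 lower. Mrgprb2, the receptor through which peptides and drugs trigger connective tissue mast cells without IgE, was at 206 and 215 CPM against 0.0538 CPM, and the related receptor Mrgprb1 at 735 and 399 CPM against 0.108 CPM. Both Mrgprb receptors were at 0 in the basophil side. The lower surface genes included the IgG receptor genes Fcgr3, Fcgr2b and Fcgr4 (log2 -1.15, -1.80 and -1.84). Other genes of the named high group were Serpinb1a, a protease inhibitor, at 1907 CPM against 7.60 CPM, Cyp11a1, the first enzyme of steroid synthesis, at 533 against 0.613 CPM, Cd200r3 at 383 against 0.436 CPM, Rab27b, a granule secretion GTPase, at 424 against 1.24 CPM, and the pseudogene Mcpt-ps1 at 312 against 0.0699 CPM.

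Secreted signals were uneven. Of 11 cytokine genes compared, 6 were past 2-fold higher and 1 lower. Il6 was at 403 CPM in control members and 450 CPM in Lyz2-icre members, against 9.63 CPM elsewhere. Of its 134 UMIs, 80 were in the basophil side. Mast-side cells held 18 in the control and 36 in the Lyz2-icre library, 24 of the latter in 1 cell. Il4, the type 2 cytokine of both cell types, was at 108 and 246 CPM, against 0.333 CPM. Of its 24 Lyz2-icre UMIs, 18 were in 1 basophil-side cell, and without that cell the Lyz2-icre members were at 62.6 CPM, below the control. Il5, Il3, Il9 and Il10 had no UMI in any member, and the 3 counts that a count of 0 allows correspond to 9.35 CPM. Of 13 chemokine genes, 5 were higher (Ccl1, Ccl2, Ccl3, Ccl4 and Ccl7) and 5 lower (Ccl5, Cxcl1, Cxcl2, Cxcl3 and Cxcl10). The basophil side held 602 of the 702 Ccl3 UMIs and 863 of the 1090 Ccl4 UMIs, and the mast side was at 344 and 780 CPM, within 2-fold of other cells (254 and 585 CPM). Of 56 Ccl1 UMIs, 52 were in 1 mast-side cell. Ccl2 and Ccl7, attractants of monocytes, were at 2783 and 3004 CPM against 1098 and 773 CPM. A UMI of Ccl2 or Ccl7 was found in 55 of 56 mast-side cells. The same share of other kept cells is not given here, so this count does not set the mast side apart. Median depth was 4012.5 UMIs in the mast side and 7416 over all kept cells. Among 20 immediate early genes, 7 were higher and none lower, with Jun at 2692 against 583 CPM. Among 16 interferon response genes, 11 were lower and 1, Ifitm1, was higher. Ifitm1 had 117 UMIs in the basophil side and 62 in the mast side, where it was at 213 CPM against 140 CPM in other kept cells. Macrophage markers were lower for 9 of 10.

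Over all genes, 312 were past 2-fold higher (8.87%), 456 lower (13.0%) and 768 either way (21.8%), with a median log2 ratio of -0.16. Under median-of-ratios scaling the split was 374 higher and 353 lower and the median 0.04. Without the cell that held most UMIs of each gene, 695 of the 768 were still past 2-fold.

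The mast and basophil sides differed in which proteases and which chemokines they held. The basophil side's 6 cells held 29985 UMIs in all. Of 1542 genes compared, 406 were past 2-fold higher in the mast side (26.3%), 153 lower (9.92%) and 559 either way (36.3%). Of the 406, 111 had no UMI in the basophil side, and 319 stayed past 2-fold (20.7%) once those were set to the floor of 3 counts over the group, 100.1 CPM. The median log2 ratio was 0.33. Under median-of-ratios scaling the split was 340 higher and 218 lower, with a median of 0.10. The sides were cut with Cma1, Tpsb2, Mcpt4 and Mcpt8, so none of these counts is a test.

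Of 11 granule protease genes compared, 9 were past 2-fold higher in the mast side, 8 of them also at the floor, and 2 were lower. The lower genes were Mcpt8, which cut the sides, and Gzmb, granzyme B, at 406 CPM in the mast side against 2601 CPM in the basophil side. Of the 78 Gzmb UMIs of the basophil side, 43 and 22 were in its cells of 3859 and 16675 UMIs. On the mast side, Mcpt2 was at 22400 CPM and at least 224-fold higher than in the basophil side, which had no UMI of it. Tpsb2 was at least 125-fold, Mcpt4 at least 63.5-fold, Mcpt1 at least 11.8-fold and Tpsab1 at least 10.6-fold higher on the same floor. Mrgprb1 was at least 6.97-fold, Tph1 at least 4.74-fold and Rab27b at least 4.67-fold higher. These genes had no UMI in any basophil-side cell. Arg1 and the histone gene H1f2, at least 4.67-fold and 4.57-fold higher, were also unseen there, but they were at 823 and 134 CPM in other kept cells. Cma1 was at 21960 against 300.2 CPM, with all 9 basophil-side UMIs in 1 cell. Kit was at 897 against 167 CPM, again with all 5 basophil-side UMIs in that cell. Ccl2 was at 3039 against 300.2 CPM, and Ccl7 at 3310 CPM against 1 UMI. Macrophage markers were higher in the mast side for 7 of 9 genes compared. C1q-high cells of the control also held Ccl2 (1185 CPM) and Ccl7 (843 CPM), and the part of macrophage RNA in these 2 differences was not tested.

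Several cytokine and chemokine genes were higher in the basophil side. Of 11 chemokine genes compared, 5 were lower in the mast side (Ccl3, Ccl4, Ccl6, Ccl9 and Cxcl2) and 6 higher, of which 3 stayed past 2-fold at the floor (Ccl2, Ccl7 and Ccl12). Of 9 cytokine genes compared, 5 were lower in the mast side and 1, Il13, was higher at the floor, with 67 of its 81 mast-side UMIs in 1 cell. Ccl3 was at 20080 CPM in the basophil side against 344 CPM in the mast side, and Ccl4 at 28780 against 780 CPM. Ccl6 was at 6036 against 85.9 CPM and Ccl9 at 1968 against 168 CPM. Il6 was at 2668 against 186 CPM, Csf1 at 2201 against 141 CPM and Osm at 2368 against 316 CPM. Il4 was at 867 against 75.6 CPM. Acod1, which makes itaconate, showed 1868 against 13.8 CPM, but 47 of its 56 UMIs were in 1 cell. Among 18 immediate early genes, 9 were lower in the mast side and 2 higher. Ifitm1, Nlrp3, Ptgs2 and Cd9 were the remaining genes of the lowest 12, 18.3-fold, 9.11-fold, 7.96-fold and 7.12-fold lower in the mast side. Genes common to both sides were Gata2 (443 and 434 CPM), Ms4a2 (254 and 234 CPM) and Cd200r3 (392 and 300.2 CPM).

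**Figure D3:**
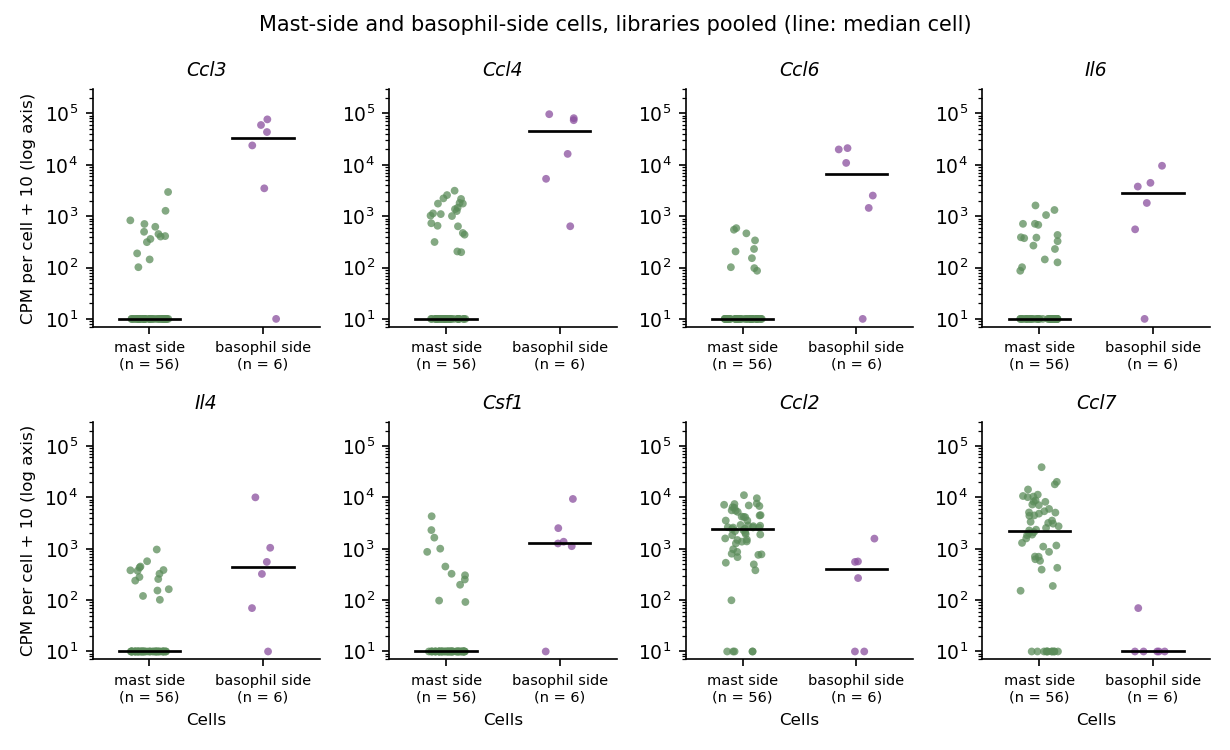
CPM plus 10 (log axis) of 8 cytokine and chemokine genes in each of 56 mast-side and 6 basophil-side cells, with a line at the median cell. Of the 6 basophil-side cells, 5 hold Ccl3 and Ccl6 and all 6 hold Ccl4, where the median mast-side cell is at 0, and Ccl7 has 1 UMI in 1 basophil-side cell.

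Taken cell by cell, the basophil side was not uniform. In the 4 control cells, of 796, 3670, 3859 and 16675 UMIs, Mcpt8 had 10, 21, 12 and 16 UMIs. In the Lyz2-icre cells, of 1796 and 3189 UMIs, it had 16 and 14. Tpsb2 and Mcpt4 had no UMI in any of the 6. The Lyz2-icre cell of 3189 UMIs differed: it held 30 Cpa3, 9 Cma1, 5 Kit and 3 Fcer1a UMIs and no Ccl3. The other 5 held 19 to 219 Ccl3 UMIs, no Kit and no Cma1. Prss34, a protease known from basophils, had 2 UMIs in 1 cell and none in the others (66.7 CPM), and 22 UMIs in 10 of 56 mast-side cells (75.6 CPM). Fcer1a was at 1 UMI in 1 further cell, so FceRI alpha RNA was hardly seen in these 5.

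The deepest basophil-side cell held 55.6% of the group's UMIs. It carried Xist (4 UMIs) together with Y-linked RNA (2 UMIs), and NK cell genes Ncr1 (11 UMIs), Prf1 (10), Nkg7 (9), Klrb1c (4) and Klre1 (4). Of these 5 genes the other 5 cells held only 1 Nkg7 UMI. Gzmb, looked at beside them, went the other way. It had 22 UMIs (1319 CPM) in the deepest cell and 56 UMIs (4207 CPM) in 4 of the other 5. The deepest cell also held 109 of the group's 118 Lyz2 UMIs. Beside the Mcpt8 level that chose it, the part of NK cell RNA in its values was not tested. Without it, the other 5 cells stood at 40870 CPM for Ccl3, 58150 CPM for Ccl4, 11800 CPM for Ccl6 and 1878 CPM for Il4, further from the mast side than with it. Genes past 2-fold numbered 799 without this cell, against 559 with it, and this count was added after the data had been seen.

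The share of members differed between the libraries. They were 0.504% (0.367 to 0.677, exact Clopper-Pearson 95%) of 8724 control cells and 0.129% (0.0767 to 0.204) of 13915 Lyz2-icre cells. The ratio was 0.257 (0.140 to 0.453, exact conditional binomial). Among cells with under 10 C1q UMIs, 36 of 2564 (1.40%) and 12 of 3380 (0.355%) were members, a ratio of 0.253 (0.120 to 0.497). Mast-side cells were 0.459% and 0.115%, a ratio of 0.251 (0.131 to 0.458). Basophil-side cells were 4 of 8724 and 2 of 13915, a ratio of 0.314 (0.0284 to 2.19), an interval that spans 1. Both ratios of all members and of mast-side cells lay below 1. The share of members was lower in the Lyz2-icre library with and without cells of 10 or more C1q UMIs, by about the same factor. Mice of each library were not labelled, so an animal and its genotype cannot be told apart. Within female cells (Xist detected, Y-linked genes not), 28 of 5201 and 13 of 7766 were members, a ratio of 0.311 (0.148 to 0.620). Within male cells it was 2 of 1798 and 2 of 2453, a ratio of 0.733 (0.0531 to 10.1), too few to place. Of the members, 41 were female by these genes, 4 male, 15 had neither and 2 had both.

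**Figure D4:**
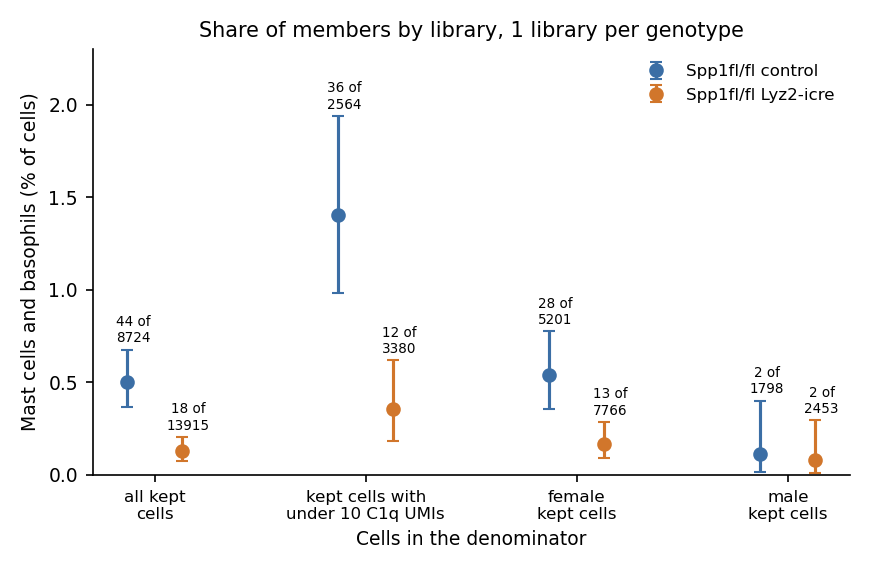
Mast cells and basophils as a percentage of 4 sets of kept cells (x), by library (colour), with exact 95% binomial intervals and the counts above. The Lyz2-icre share lies below the control share in every set, and the intervals overlap among male cells, where each library had 2 members.

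Spp1 and Lyz2 check the labels, and they differed in the members too. In C1q-high cells, Spp1 was at 686 CPM in the control and 9.85 CPM in the Lyz2-icre library, a ratio of 0.0144 (0.0134 to 0.0154). Members held 32 Spp1 UMIs (143 CPM, in 15 of 44 cells) in the control and 2 (20.5 CPM, in 1 of 18 cells) in the Lyz2-icre library, a ratio of 0.143 (0.0166 to 0.560). With each cell thinned to 2000 UMIs, 13.2% of control members and 37.4% of control C1q-high cells held Spp1. Before thinning it was 34.1% and 66.8% of cells with a median of 3870.5 and 10563 UMIs. Spp1 was thus less frequent in the members than in C1q-high cells, and the part of free macrophage RNA in it was not tested. Lyz2, whose locus carries the Cre, was at 3042 CPM in control members and 563 CPM in Lyz2-icre members, a ratio of 0.185 (0.138 to 0.244), and at 10920 and 3878 CPM in C1q-high cells, a ratio of 0.355 (0.354 to 0.357). Lyz2 is also 1 of the 10 macrophage markers, whose sum was 7998 CPM in control members and 7779 CPM in Lyz2-icre members. Without Lyz2 the other 9 summed to 4955 and 7216 CPM, so these were higher in the Lyz2-icre members. The floxed exons were not given, so it is not known whether the 3′ tags of Spp1 lie in the deleted part.

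Within the members, proteases differed between the libraries in both directions. In summed CPM, Mcpt1 was higher in the Lyz2-icre library, while Tpsab1, Tpsb2 and Mcpt2 were lower. Of the 97701 UMIs of Lyz2-icre members, 22736 came from 1 cell. That cell held 4 Tpsb2 UMIs and none of Mcpt1, Mcpt2, Mcpt4 or Tpsab1, and its part in these protease ratios was not tested. Of 821 genes with at least 50 CPM and 30 UMIs in the higher library, 27 were past 2-fold higher (3.29%), 48 lower (5.85%) and 75 either way (9.14%). Of 10 granule protease genes among them, 2 were higher and 3 lower. Under median-of-ratios scaling the split over all genes was 41 higher and 40 lower, with a median log2 ratio of -0.03 in place of -0.12. Without the top cell of each gene, 41 of the 75 were still past 2-fold.

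Mcpt1, the mucosal chymase whose upstream stretch is printed above, had 31 UMIs (139 CPM) in control members and 312 UMIs (3193 CPM) in Lyz2-icre members, a ratio of 23.0 (15.9 to 34.4). In the 40 control mast-side cells it ranged from 0 to 3797 CPM with a median of 0. In the 16 Lyz2-icre mast-side cells it ranged from 0 to 19380 CPM with a median of 1312 CPM. The cells overlapped, since 6 Lyz2-icre mast-side cells had none, but 10 of 16 held Mcpt1 there against 8 of 40 in the control. At 10 or more UMIs it was 7 of 16 against 1 of 40. After thinning each member to 2000 UMIs, 61.5% of 13 Lyz2-icre and 13.2% of 38 control members held it, and unthinned 55.6% and 18.2%. In C1q-high cells the unthinned share was 0.0380% and 0.0488%. Among mast-side cells with under 10 C1q UMIs, 5 of 10 and 5 of 32 held it. The log2 ratio was 4.47, 3.88 without the top cell, 3.53 without members of 10 or more C1q UMIs, and 4.12 within female cells.

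Tpsab1 went the other way. It had 277 UMIs (1241 CPM) in control members and 32 UMIs (327.5 CPM) in Lyz2-icre members, a ratio of 0.264 (0.177 to 0.381). Single mast-side cells ranged from 0 to 4606 CPM (median 1261) in the control and from 0 to 2584 CPM (median 331) in the Lyz2-icre library. A UMI was found in 79.6% and 55.6% of members, and in 79.0% and 38.5% after thinning. The ranges overlapped although the median cell was lower in the Lyz2-icre library. Without members of 10 or more C1q UMIs the log2 ratio was -1.19 in place of -1.91.

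Tpsb2 was at 13840 CPM in control members and 5681 CPM in Lyz2-icre members, a ratio of 0.410 (0.374 to 0.449), with median mast-side cells at 15760 and 6041 CPM. Mcpt2 had a ratio of 0.391 (0.365 to 0.419), but its median mast-side cells were close, at 10880 and 10020 CPM, and single control cells reached 91470 CPM. Cma1 (0.641), Cpa3 (0.688) and Mcpt4 (0.883) were within 2-fold. The sums of Mcpt2 therefore differed more than its median cells, while for Tpsb2 both differed. Mcpt8 was at 712 and 2313 CPM, with 196 of the 226 Lyz2-icre UMIs in 1 cell, and its log2 ratio without that cell was -1.20. Genes of the receptors and amines were closer: Kit had a ratio of 0.832 (0.625 to 1.1), Fcer1a 0.865, Hdc 0.706 and Gata2 1.44, whose log2 ratio was -0.16 without the top cell. None of 9 surface regulators, 4 amine genes or 5 cytokine receptors compared was past 2-fold, where 9.14% of all 821 genes were. On the IgE receptor list 1 of 9 genes was, Lcp2, higher (log2 1.12). Within the mast side none of 7 genes of that list was past 2-fold higher and 1, the adaptor Lat, was lower (log2 -1.32), where 10.9% of all 749 genes were past 2-fold. For lists this short, these counts are near the shares over all genes.

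**Figure D5:**
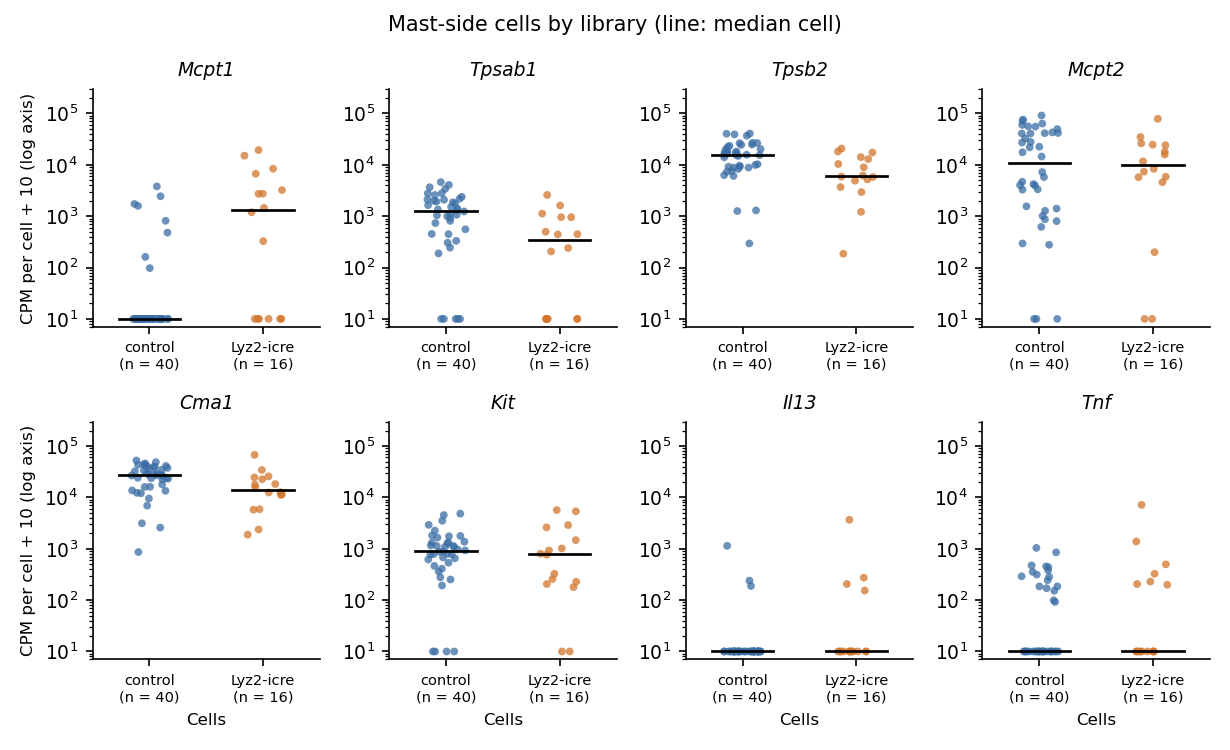
CPM plus 10 (log axis) of 8 genes in each mast-side cell of the control (n = 40) and Lyz2-icre (n = 16) libraries, with a line at the median cell. The median cell of Mcpt1 is 0 CPM in the control and 1312 CPM in the Lyz2-icre library, while for Il13 and Tnf the highest Lyz2-icre cell stands alone.

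The remaining genes with the highest ratios had most of their UMIs in few cells, or were also present in other kept cells. Il13, a type 2 cytokine, had 6 UMIs in control and 75 in Lyz2-icre members, a ratio of 28.6 (12.5 to 80.3), but 67 of the 75 were in 1 cell of 18310 UMIs. That cell also held 131 of the 149 Tnf UMIs and all 52 Ccl1 UMIs of the Lyz2-icre members. Without it the log2 ratio of Tnf was 0.11 in place of 3.13. All 4 Lyz2-icre mast-side cells with Il13 had 10 or more C1q UMIs, and without such cells the Lyz2-icre library had no Il13 UMI (log2 ratio -2.62). Of 6 cytokine genes compared, 3 were higher (Il13, Tnf and Il1b) and 1, Csf1, lower, and Il1b turned to a log2 ratio of -2.60 without its top cell. Over both libraries Csf1 had 66 UMIs in the basophil side and 41 in the mast side. The control basophil-side cells of 3859 and 16675 UMIs held 36 and 21 of them. Of 10 chemokine genes, 2 were higher (Ccl1 and Ccl12) and 1, Ccl5, lower. None of 15 immediate early genes or 6 interferon response genes was past 2-fold, where 9.14% of all 821 genes were. Arg1 had 13 UMIs in control and 123 in Lyz2-icre members, 91 of them in the deepest cell of 22736 UMIs. Fn1 (ratio 9.75, 6.51 to 15) and Fabp5 (7.81, 4.02 to 16.3) turned to log2 ratios of -0.09 and -0.43 without members of 10 or more C1q UMIs. These 3 genes were at 823, 1072 and 580 CPM in other kept cells, and the part of macrophage RNA in them was not tested.

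Among the lowest genes, Speer4e, of a germ cell gene family, had 67 UMIs in 14 control mast-side cells and 5 UMIs in 2 Lyz2-icre mast-side cells, a ratio of 0.171 (0.0536 to 0.418) over members. It was at 0.0699 CPM in other kept cells, so its RNA was seen mainly in the members. Rdx, a membrane linker protein, had a ratio of 0.196 (0.0385 to 0.621) and Atp6ap2, a proton pump subunit, 0.202 (0.0396 to 0.641). Tsc22d1 had a ratio of 0.213 (0.0554 to 0.585) and Plekho2 0.221 (0.0433 to 0.709). These 4 had 3 or 4 Lyz2-icre UMIs each and were at 36.8 to 164 CPM in other kept cells. Col1a1 and Col3a1 were past 2-fold higher, with 59 of 59 and 29 of 32 Lyz2-icre UMIs in the cell of 5912 UMIs described above. Within the mast side alone, 34 of 749 genes were past 2-fold higher (4.54%), 48 lower (6.41%) and 82 either way (10.9%), with Mcpt1 at a log2 ratio of 4.38 and Tpsab1 at -2.0. H1f2, which joined the lowest genes there, had a ratio of 0.252 (0.133 to 0.439). The basophil side had fewer than 10 cells in each library and was not compared between genotypes.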

How the data were processed

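Single-cell 3′ RNA libraries of tumour leukocytes, 1 from SPP1fl/fl and 1 from SPP1fl/fl Lyz2-icre mice, were used as the raw UMI counts per gene and cell that the authors deposited. Cell Ranger and mm10 are named in the submitters' processing notes, and the matrix header gives Cell Ranger 8.0.1; the annotation release and steps before deposit are not given in the sources used here. Genes numbered 55357, of which 28475 had a UMI.

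Cells were filtered and chosen as given in the report. UMIs were summed over cells to counts per 1000000 (CPM), and log2 ratios used 5 CPM added to each side. With 1 library per genotype no test was run; past 2-fold is a description of size. Intervals are exact at 95% (Poisson, Clopper-Pearson or conditional binomial) and cover counting error only. For the genotype comparisons, 50 CPM and 30 UMIs were required in the higher library. To compare shares of cells, each cell was thinned to 2000 UMIs and shallower cells were left out. The members, gene lists and rules were chosen with earlier results of these data known. Named genes were those of the lists, the 20 highest in the members, the 12 highest and 12 lowest between the sides, and the 6 highest and 6 lowest between the genotypes, among genes with at least 100 CPM and 30 UMIs and a UMI in 20% of cells of the higher side. Between the sides and the genotypes, a named gene also needed at least 0.5 of the CPM of other kept cells in the higher side; model genes, ribosomal, mitochondrial and sex-linked genes were left out. Alternatives covered the marker minimum, the cell filter, C1q-bearing members, sex, depth, scaling, added CPM and the filter on low genes. The scripts were tested on simulated counts. Python 3.11.15, numpy 2.4.6, scipy 1.17.1, pandas 2.3.3 and matplotlib 3.10.9 were used. Promoter sequences come from RefSeq tables of GRCm38.p6, and gene positions from GENCODE vM21.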

Additional observations from a re-analysis of the deposited data

How the results depend on the processing

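The ratio of member shares, Lyz2-icre against control, was 0.209 to 0.311 under 8 alternatives and 0.733 within male cells, which held 2 members per library. The mast side was 97.6% of members among female cells and 75% among male cells, in place of 90.3%. Genes past 2-fold between members and other cells numbered 2328 without a filter on low genes, in place of 768. Between mast and basophil sides they numbered 6753 without that filter, 302 without members of 10 or more C1q UMIs, 232 after thinning to 2000 UMIs and 252 in the Lyz2-icre library alone, in place of 559. Between genotypes they numbered 3869 without the filter, 119 from the mean of per-cell CPM, 34 after thinning and 27 within male cells, in place of 75. The filter lets in genes of few UMIs, and the other settings leave fewer cells or UMIs or weight shallow cells more; the cause was not tested further. The log2 ratio between genotypes turned to -2.62 for Il13, -0.092 for Fn1 and -0.43 for Fabp5 without members of 10 or more C1q UMIs, and to -3.87 for Fabp5 within male cells. Of the 20 genes named for the members, 15 were not used by the rule, and 135 of their 135 values under the alternatives stayed past 2-fold. Of the 24 named between the sides, 21 did not cut them, with 251 of 252 values, the exception being Il6 at a marker minimum of 20 UMIs (-0.59), and for 12 genes between genotypes 146 of 156. A marker minimum of 20 UMIs leaves 2 basophil-side cells. Leaving out a replicate was not possible with 1 library per genotype. No paired analysis was possible because the labels give no replicate numbers and each group is 1 library. Depth limits the Lyz2-icre members most, where 97701 UMIs put the floor of 3 counts at 30.7 CPM, and the basophil side, where it is 100.1 CPM.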

Other observations

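A further split was seen within the mast side, chosen after its values were seen and given as values only. A UMI of Mcpt8 was found in 8 of 40 control and 1 of 16 Lyz2-icre mast-side cells. All 9 held Cpa3, Cma1, Tpsb2, Kit, Gata2 and Hdc, so they carried mast cell genes beside Mcpt8. Mcpt4 was at 492 CPM in these 9 and 8872 CPM in the other 47, where every cell held it. Ctsg, the granule protease cathepsin G, was at 743 against 49.2 CPM, Fcer1a at 263 against 1209 CPM and Mrgprb2 at 57.2 against 305 CPM. Mki67, a gene of cycling cells, was at 343 against 63.9 CPM, and Top2a at 252 against 118 CPM, but the Lyz2-icre cell of 22736 UMIs held 23 of the 30 Mki67 and 16 of the 22 Top2a UMIs. Without it the other 8 cells were at 108 CPM for Mki67 and 92.7 CPM for Top2a, the latter below the cells without Mcpt8. Gata2 was at 709 against 329 CPM and Hdc at 2984 against 1293 CPM. Cma1 was close in both, at 20660 and 22510 CPM. The 9 cells were deeper, with a median of 11039 UMIs against 3663, and a deeper cell shows an Mcpt8 UMI more readily. Their C1qa level was 1544 against 1047 CPM. The part of depth and of joined cells in this pattern was not tested.

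Mast-side cells with both Mki67 and Top2a numbered 7 of 40 in the control and 3 of 16 in the Lyz2-icre library. Cells with a UMI of either were 10 of 40 and 4 of 16, and the basophil side had no UMI of either gene in its 29985 UMIs. At the floor of 3 counts the mast side was at least 1.48-fold higher for Mki67 and 1.58-fold for Top2a. Both lie under 2-fold, so these counts are too few to tell the sides apart in cycling.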
